A study of Mus musculus with 6 samples.

Results

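The subject of this section is a set of 10 mouse genes that respond to fibroblast growth factor (FGF) and extracellular signal-regulated kinase (ERK) signalling and mostly feed back on it: the Sprouty genes Spry1, Spry2 and Spry4, the related Spred1, the dual-specificity phosphatase genes Dusp4 and Dusp6, the receptor-associated inhibitor Il17rd, and the ETS transcription factor genes Etv1, Etv4 and Etv5. They were picked by name from the array annotation, and all 10 were found among the 19938 genes with a transcript carrying a single gene symbol. RNA was measured on 6 Affymetrix whole-transcript arrays that follow cultures of strain 129 cells along one differentiation route. Epiblast stem cells (EpiSCs, 1 array), pluripotent cells of the postimplantation embryo, were kept in knockout serum replacement (20%) with FGF2 at 10 ng/ml. Patterned neural rosettes (1 array), a culture model of the ventral neural tube, were made from them over 5 days with SB431542, Dorsomorphin, Noggin, retinoic acid and sonic hedgehog (SHH). Oligodendrocyte progenitor cells (OPCs, 2 arrays, passages 3 and 11) were derived from dissociated rosettes and kept in N2B27 medium containing FGF2, PDGF-AA and SHH. Oligodendrocytes (2 arrays, from OPCs of passages 3 and 11) were obtained by taking away FGF2 and PDGF-AA and adding thyroid hormone. FGF2 is thus listed for EpiSCs and OPCs, is not among the factors listed for rosettes, and was withdrawn for oligodendrocytes.

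FGFs bind receptor tyrosine kinases, which pass the signal through RAS, RAF and MEK to the kinase ERK. ERK activity switches on a set of genes whose products damp the same route, so their transcripts are widely read as a sign of recent pathway activity. Sprouty and Spred proteins act between receptor and RAF, Dusp6 removes the activating phosphates from ERK in the cytoplasm and Dusp4 does so in the nucleus, and Il17rd, also called Sef, acts at the membrane. Etv1, Etv4 and Etv5 form the PEA3 group of ETS factors, which are transcribed in response to FGF and carry part of its output. In the oligodendrocyte lineage FGF2 and PDGF keep progenitors dividing, and their removal permits differentiation.

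Values are log2 expression values as the authors deposited them, and differences are log2 differences, so 1 is a 2-fold change. Array medians over the genes tested lay between 8.98 and 9.04. The labels of the cultures were set against marker genes picked by name, with earlier results of these data known. Markers above 9.0, the median of all values, were counted. All 6 epiblast markers were above it in EpiSCs, all 6 OPC markers in both OPC arrays, and all 6 measured oligodendrocyte markers in both oligodendrocyte arrays, against 2 of 6 in each OPC array. The 6 OPC markers also stayed above it in both oligodendrocyte arrays, and the 6 neuroepithelial markers were above it in the rosette. That last count did not set the rosette apart. It was 5 of 6 in EpiSCs, 6 and 5 in OPCs at passages 3 and 11, and 5 in each oligodendrocyte array. The mean level of the neuroepithelial markers was 11.65 in the rosette, against 10.02 to 10.87 on the other arrays. Of the neuronal markers, 7 of 7 were above the median in the rosette (mean level 12.39), against 4 and 3 of 7 in OPCs at passages 3 and 11 (9.73 and 9.33). Microglial and endothelial markers averaged between 7.86 and 8.39 on every array, and fibroblast and pericyte markers between 9.36 and 10.35. These are bulk samples, in which fewer cells of a type and less RNA per cell cannot be told apart.

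Across the 4 cell types, 8 of the 10 genes had their highest mean in OPCs and their lowest value in the rosette, a combination found in 6.81% of all genes. The exceptions were Il17rd, which was highest in EpiSCs, and Dusp4, which was highest in the rosette. Of all 10 genes, 5 lay above the median of all values on every array, so low signal bore mainly on Etv4, Etv5, Dusp4, Spry2 and Spry4, whose lowest values fell below that median.

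Spry2, an inhibitor of receptor signalling to ERK, stood at 10.42 in EpiSCs, 8.79 in the rosette, 11.44 and 11.49 in OPCs at passages 3 and 11, and 10.36 and 10.51 in oligodendrocytes at passages 3 and 11. The OPC arrays were the highest, the rosette was the lowest, and EpiSCs lay between the oligodendrocyte arrays. Spry4, which shares the same cysteine-rich Sprouty domain, stood at 10.87 in EpiSCs, 8.94 in the rosette, 11.90 and 12.36 in OPCs, and 10.99 and 10.35 in oligodendrocytes. Here too EpiSCs fell within the range of the oligodendrocyte arrays. Spry1 followed another course: it was 10.09 in EpiSCs and 10.07 in the rosette, 12.12 and 12.05 in OPCs, and 10.98 and 10.54 in oligodendrocytes. Both early cultures, with 1 array each, were thus nearly equal. Spred1, a membrane-bound relative that keeps RAF from being activated, varied least, with 10.74 in EpiSCs, 9.92 in the rosette, 11.28 and 11.29 in OPCs, and 11.05 and 10.78 in oligodendrocytes.

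Dusp6, the cytoplasmic ERK phosphatase, stood at 11.79 in EpiSCs, 10.44 in the rosette, 12.66 and 12.98 in OPCs, and 12.03 and 11.57 in oligodendrocytes. Dusp4, the nuclear phosphatase, ran the other way, with 9.48 in EpiSCs, 10.61 in the rosette, 8.69 and 8.16 in OPCs, and 8.41 and 7.91 in oligodendrocytes. Its OPC and oligodendrocyte arrays overlapped and all lay below the median of all values. Il17rd was 11.01 in EpiSCs, 9.84 in the rosette, 10.33 and 9.51 in OPCs, and 9.22 and 9.06 in oligodendrocytes, so the rosette lay within the range of the OPC arrays.

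Among the ETS factor genes, Etv5 had the widest range of the 10 genes, 4.02. It stood at 11.70 in EpiSCs, 8.18 in the rosette, 12.09 and 12.20 in OPCs, and 11.09 and 11.20 in oligodendrocytes. Etv1 was 11.56 in EpiSCs, 9.43 in the rosette, 12.51 and 12.92 in OPCs, and 12.23 and 12.35 in oligodendrocytes, and Etv4 was 9.50, 8.37, 10.13 and 10.18, and 8.80 and 9.23 in the same order. All 3 were lowest in the rosette and highest in OPCs, and the oligodendrocyte arrays of Etv4 lay on either side of the median of all values. Etv1, Etv5 and Il17rd each had a further transcript on the array, annotated with overlapping accessions, so the rows of a gene are not independent. The further Etv5 transcript stood at 11.54 in EpiSCs, 7.77 in the rosette, 12.35 and 12.03 in OPCs, and 11.19 and 11.00 in oligodendrocytes, which is the same order of cell types. The further Etv1 transcript was also lowest in the rosette, at 8.60, and highest in OPCs, at 12.09 and 12.39. The further Il17rd transcript was dimmer, with 9.29 in EpiSCs, 8.39 in the rosette, 8.81 and 8.39 in OPCs, and 8.22 and 8.06 in oligodendrocytes.

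**Figure D1:**
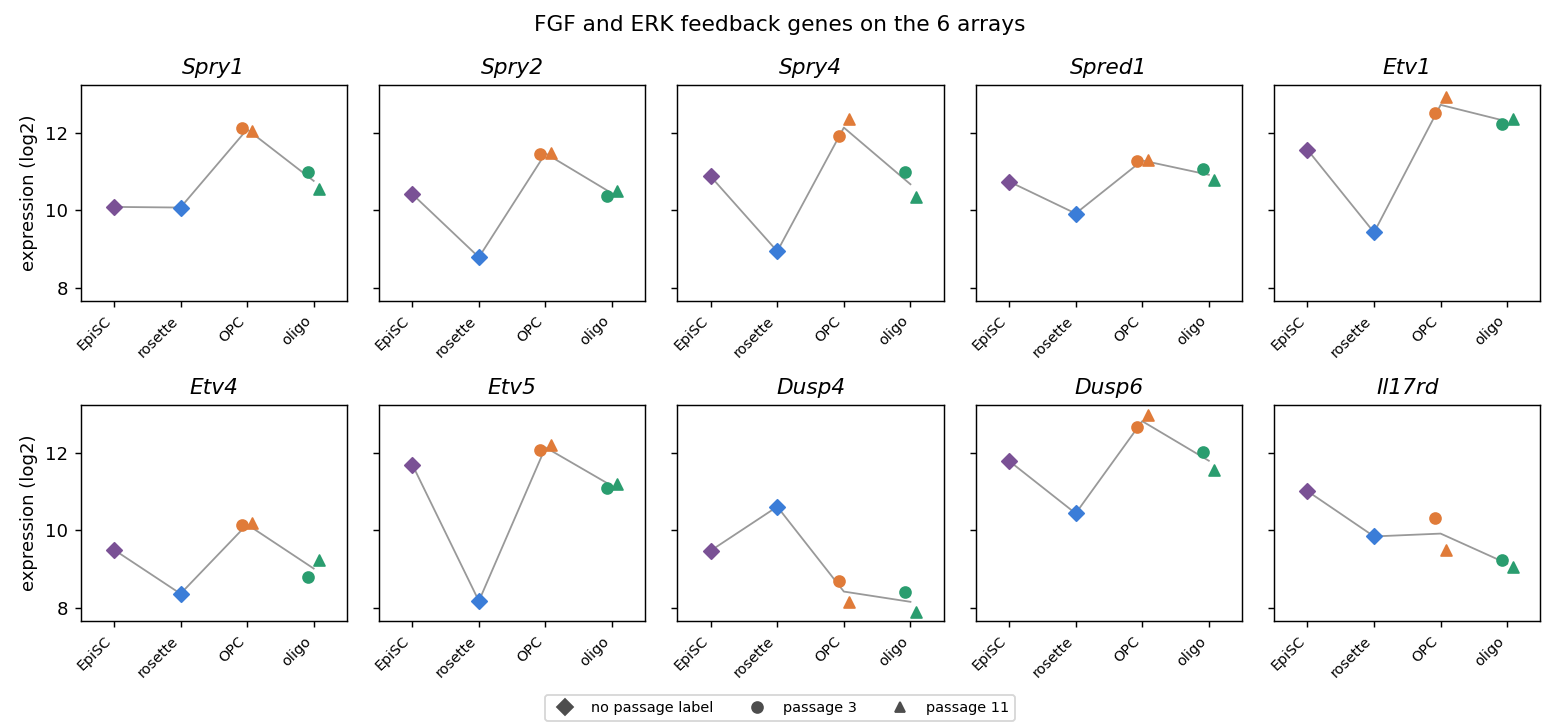
Expression (log2) of each of the 10 genes on the 6 arrays, in the order of differentiation. Diamonds are single arrays without a passage label, circles passage 3 and triangles passage 11, and the grey line joins the group means. In 8 panels the line dips at the rosette and peaks in OPCs, while Dusp4 peaks in the rosette at 10.61 and Il17rd is highest in EpiSCs at 11.01.

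Because these genes largely moved together, the DNA around their start sites was examined for the words that the pathway's own transcription factors bind. RefSeq promoter windows (GRCm38.p6, 250 bases before to 50 after a start) were held for 7 of the 10 genes, in 9 windows. Capicua is a repressor that ERK signalling inactivates and that is known to act on PEA3 genes and Dusp6. Its octamer (TGAATGAA, TGAATGGA, TCAATGAA or TCAATGGA, either strand) occurred in the windows of Dusp6 and Spry2, against 3.84% of 32851 promoter windows. The ETS word GGAAGT occurred in windows of Etv1 and Etv5 (23.8% of all windows) and the ETS word CCGGAA in that of Spry2 (14.9%). The AP-1 word TGANTCA occurred in none of the 9 windows (7.81% of all windows). In all, 14 spellings were searched in these same windows and 4 of them are shown, a choice made after the matches were seen. The octamer in particular was spelled out after the looser word TNAATGNA (11.7% of all windows) had matched in Dusp6 and Spry2. Its best-known forms TGAATGAA and TGAATGGA alone occurred in no window of the set (1.3% and 1.21% of all windows). Among the spellings not shown, the looser ETS words CAGGAA and AGGAAG matched 4 and 3 of the 7 genes (30.6% and 35.4% of all windows), and CCGGAAG and the cAMP response word TGACGTCA matched none (8.86% and 1.79%). Enrichment was not tested, and a match is a description, not a bound site. The 4 windows below hold the matches, which are in capitals, written in the direction of transcription. The Dusp6 window (chr10:99262981-99263280, + strand) holds the octamer at 2 places, starting 24 bases before and 1 base after the annotated start. In the Spry2 window (chr14:105896770-105897069, - strand) the octamer starts 54 bases before it, and CCGGAA follows 33 bases after the start. In 1 of the Etv5 windows (chr16:22438319-22438618, - strand) GGAAGT starts 217 bases before and 2 bases after the start. In 1 of the Etv1 windows (chr12:38779832-38780131, + strand) GGAAGT starts 3 bases before the start. Etv5 and Etv1 each had a further window, which held none of the 4 words shown.
Dusp6: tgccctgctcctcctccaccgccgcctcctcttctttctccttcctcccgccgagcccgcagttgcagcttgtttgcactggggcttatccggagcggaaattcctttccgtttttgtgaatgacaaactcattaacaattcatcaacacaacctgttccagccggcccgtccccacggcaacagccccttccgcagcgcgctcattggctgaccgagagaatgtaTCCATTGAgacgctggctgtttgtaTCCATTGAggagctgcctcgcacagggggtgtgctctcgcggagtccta
Spry2: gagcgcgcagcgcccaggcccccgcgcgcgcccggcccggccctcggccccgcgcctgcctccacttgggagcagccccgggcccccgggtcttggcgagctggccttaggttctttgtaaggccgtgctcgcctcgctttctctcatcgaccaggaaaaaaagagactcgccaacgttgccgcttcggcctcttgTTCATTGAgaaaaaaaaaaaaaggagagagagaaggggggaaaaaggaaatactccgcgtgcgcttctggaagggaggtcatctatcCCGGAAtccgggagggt
Etv5: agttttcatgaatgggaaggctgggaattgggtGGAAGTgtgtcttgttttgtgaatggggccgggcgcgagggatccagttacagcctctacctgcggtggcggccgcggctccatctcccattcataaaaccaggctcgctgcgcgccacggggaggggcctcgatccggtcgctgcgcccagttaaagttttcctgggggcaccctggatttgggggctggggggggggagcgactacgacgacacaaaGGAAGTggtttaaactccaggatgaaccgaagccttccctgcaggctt
Etv1: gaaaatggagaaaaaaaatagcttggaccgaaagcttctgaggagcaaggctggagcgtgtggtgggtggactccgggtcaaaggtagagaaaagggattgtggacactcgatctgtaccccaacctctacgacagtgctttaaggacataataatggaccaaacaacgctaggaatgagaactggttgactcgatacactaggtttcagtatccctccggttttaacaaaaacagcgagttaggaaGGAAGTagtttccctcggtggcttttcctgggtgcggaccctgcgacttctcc

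The first tested comparison asked how the genes differ between OPCs and the rosettes they were derived from. Of the 10 genes, 8 rose in OPCs, 1 fell (Dusp4) and Il17rd did not pass, whereas 3.13% of all genes tested were called (1.26% higher, 1.87% lower). The median difference of the 10 genes was 2.20, against 0.02 over all genes. Etv5 averaged 12.14 ± 0.08 in OPCs (SD, n = 2) against 8.18 in the rosette, a difference of 3.97 ± 0.17 (SE, adjusted p = 0.0036). Spry2 differed by 2.68 ± 0.17 (adjusted p = 0.0058), Etv1 by 3.29 ± 0.23 (adjusted p = 0.0062) and Spry4 by 3.19 ± 0.34 (adjusted p = 0.0156). Dusp6 rose by 2.38 ± 0.26 (5.21-fold) and Spry1 by 2.02 ± 0.23 (4.05-fold). The smallest increases were those of Etv4, 1.79 ± 0.23 (adjusted p = 0.0244), and Spred1, 1.37 ± 0.19 (adjusted p = 0.0314). Dusp4 averaged 8.42 in OPCs against 10.61 in the rosette, a difference of -2.19 ± 0.32 (adjusted p = 0.0341). Il17rd differed by 0.07 ± 0.35 (adjusted p = 0.972), and by -0.34 without the passage 3 OPC array.

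The lone rosette array was assumed to vary like the OPC and oligodendrocyte pairs. Without the passage 3 OPC array 6 of the 10 genes were called, with Spry1, Spred1 and Etv4 missing the threshold (adjusted p = 0.0716, 0.144 and 0.0890). Without the passage 11 OPC array 4 were called, with Dusp4 and Dusp6 also missing it (adjusted p = 0.101 and 0.0644). These fits take their spread from the oligodendrocyte pair alone, and call 1.04% and 0.782% of all genes. Without either oligodendrocyte array 9 of the 10 were called, and 14.5% of all genes. The neuronal markers given above moved with this comparison, and their part in it was not tested.

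Of 102 other measured genes of the pathway, 6 rose and 2 fell between OPCs and the rosette, where 3.13% of all genes were called. The shares of all genes given above for the fits without an array apply here too. Leaving out an array moved these counts widely: 2 rose and 1 fell without the passage 3 OPC array, 3 and 0 without that of passage 11, and 16 and 8 without either oligodendrocyte array. Of 22 FGF ligand genes, 1 passed: Fgf15, a ligand of the early neural tube, fell by 1.97 (adjusted p = 0.0133). Fgf1 differed by 2.24 ± 0.41 and missed the threshold (adjusted p = 0.0616, and 0.0094 with passage as a replicate block). Of 11 measured receptor and partner genes 1 rose, Fgfrl1, an FGF receptor without a kinase domain, by 1.35 ± 0.20 (adjusted p = 0.0366). Fgfr1, the main FGF receptor of neural progenitors, stood at 12.20 and 12.17 in OPCs against 11.44 in the rosette (adjusted p = 0.549). Of 15 measured genes of the RAS to ERK cascade 1 rose, the adaptor gene Gab1, by 1.40 ± 0.18 (adjusted p = 0.0253). Of 15 other feedback inhibitors and phosphatases 0 rose and 1 fell, Dusp8, a phosphatase that prefers stress kinases, by 1.30 (adjusted p = 0.0342), and the list's median was -0.06. Spred2 was at 0.99 ± 0.33 (adjusted p = 0.243). Of 13 other ETS factor genes Ets1 rose, by 2.13 ± 0.22 (adjusted p = 0.0142), while Elk3 at 2.02 ± 0.35 did not pass (adjusted p = 0.0536, and 0.0374 with the replicate block). Of 14 early genes that respond to ERK, Myc rose by 2.30 ± 0.36 (adjusted p = 0.0430). Among 12 other receptor tyrosine kinase genes 2 rose, Pdgfra, the receptor for the PDGF-AA in the OPC medium, by 4.62 ± 0.29 and Egfr by 2.81 ± 0.24. Without either OPC array the Myc, Fgfrl1, Gab1 and Dusp8 calls were lost (adjusted p from 0.0960 to 0.211), that of Ets1 was lost without the passage 3 array (adjusted p = 0.0541), and that of Fgf15 without the passage 11 array (adjusted p = 0.0718).

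The second tested comparison set OPCs against EpiSCs, both of which were grown with FGF2. Of the 10 genes 3 rose in OPCs, Spry1, Spry2 and Etv1, and 0 fell, against 7.01% of all genes called (4.07% higher, 2.93% lower). The median difference was 0.84, against -0.05 over all genes. Spry1 averaged 12.09 ± 0.05 in OPCs (SD, n = 2) against 10.09 in EpiSCs and differed by 2.002 ± 0.23 (adjusted p = 0.0114), the largest difference of the 10. Spry2 differed by 1.05 ± 0.17 (adjusted p = 0.0290) and Etv1 by 1.16 ± 0.23 (adjusted p = 0.0477). As with the rosette, the lone EpiSC array was assumed to vary like the pairs. The remaining differences did not pass. Etv5 was at 0.44 ± 0.17, Spred1 at 0.54 ± 0.19, Etv4 at 0.65 ± 0.23, Dusp6 at 1.03 ± 0.26 and Spry4 at 1.26 ± 0.34 (adjusted p from 0.0944 to 0.237). Dusp4 at -1.06 ± 0.32 and Il17rd at -1.10 ± 0.35 pointed the other way (adjusted p = 0.136 and 0.160), and Dusp4 passed with passage as a replicate block (adjusted p = 0.0218, 4 genes called in all). Unadjusted, all 10 genes had a p under 0.05, against 20.5% of all genes.

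The count of 3 was not stable. With all arrays kept, 1 gene, Spry1, was called when all transcripts were tested, when quantile normalization was repeated and with a trended variance prior (adjusted p from 0.0503 to 0.0733 for Spry2 and 0.0534 to 0.107 for Etv1). Likewise 1 of the 10 genes, Spry1, was called without the passage 3 or without the passage 11 OPC array, and 9, all but Etv5, without the passage 3 or without the passage 11 oligodendrocyte array. The oligodendrocyte arrays enter only the spread here. Those fits call 2.72% and 2.36% of all genes without the passage 3 and the passage 11 OPC array, and 20.8% without either oligodendrocyte array. In the wider pathway Fgfrl1 rose by 2.002 ± 0.20 (adjusted p = 0.0079), Gab1 by 2.35 ± 0.18 (adjusted p = 0.0041) and Myc by 2.59 ± 0.36 (adjusted p = 0.0193). Myc is 1 of the 14 early genes, whose median difference ran the other way, at -0.58. Fgf5, a ligand gene of the epiblast, averaged 8.45 in OPCs against 11.54 in EpiSCs (adjusted p = 0.0022). Dusp9, an ERK phosphatase expressed in pluripotent cells, fell by 1.82 (adjusted p = 0.0100). The Myc call was lost without the passage 11 OPC array (adjusted p = 0.0573) and that of Dusp9 without the passage 3 OPC array (adjusted p = 0.0512). By list, 1 of 22 ligands rose and 2 fell, 2 of 11 receptors and partners, 3 of 15 cascade genes, 2 of 13 other ETS factors, 2 of 14 early genes and 5 of 12 other receptor tyrosine kinases rose and 0 fell, and of the 15 other feedback inhibitors and phosphatases 0 rose and 1 fell. Over the 7 lists 15 of 102 genes rose and 3 fell, against 9 and 2 without the passage 3 OPC array, 7 and 2 without that of passage 11, and 32 and 17 without either oligodendrocyte array. The other ETS factors had 0 calls without the passage 3 OPC array and the early genes 0 without that of passage 11, and Flrt3, Nf1, Sos2 and Elk4 were called in neither fit.

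**Figure D2:**
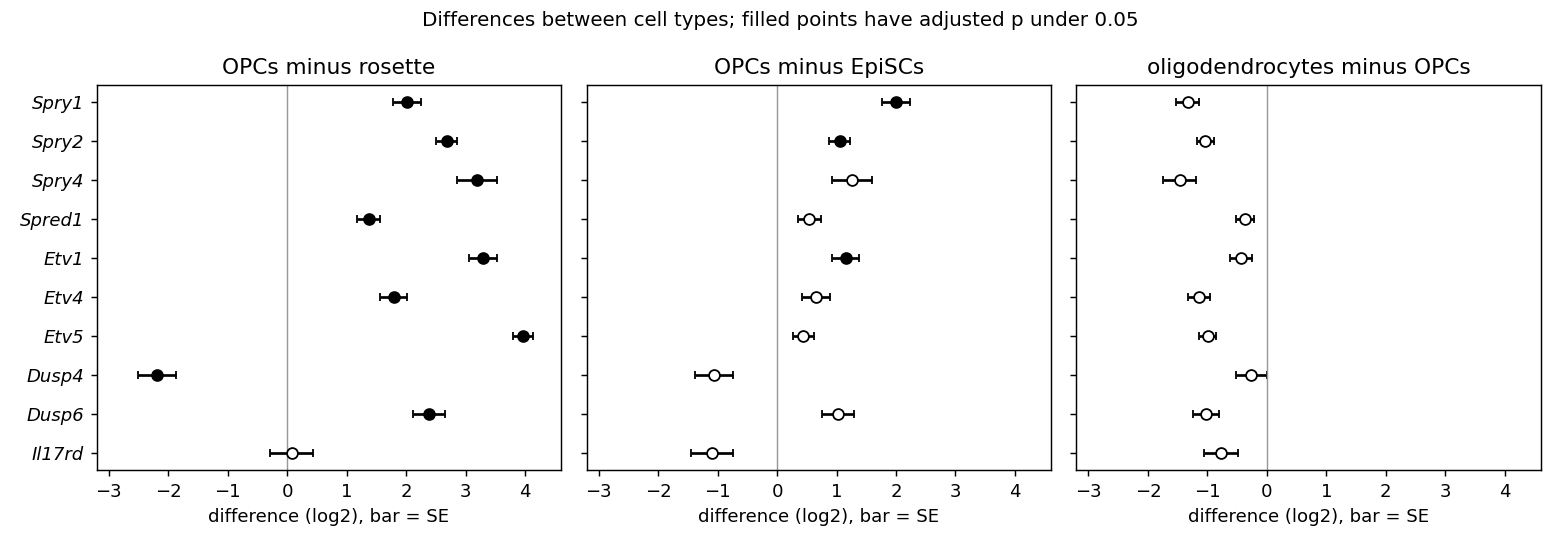
Log2 differences with SE for the 10 genes in OPCs minus the rosette, OPCs minus EpiSCs, and oligodendrocytes minus OPCs, from limma fitted to all 6 arrays. Filled points have an adjusted p under 0.05: 9 genes in the first panel, 3 in the second and 0 in the third, where all 10 points lie below 0.

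The third comparison asked what happened on conversion of OPCs to oligodendrocytes, when FGF2 and PDGF-AA were taken away and thyroid hormone was added. All 10 differences were negative, with a median of -1.01 against 0.00 over all genes, but 0 of the 10 passed after adjustment over all genes (limma), where 0.446% of all genes were called (0.396% higher, 0.0502% lower). Unadjusted, 7 of the 10 had a p under 0.05, against 12.3% of all genes. In 9 of the 10, all but Dusp4, both oligodendrocyte arrays lay below both OPC arrays, as did 21.1% of all genes (19% were the other way round and 40.1% did not overlap in either direction), and 10 of 10 were lower at both passages, as were 33% of all genes. The changes in growth factors and hormone were made together and cannot be told apart.

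Spry4 and Spry1 had the largest differences. Spry4 averaged 10.67 ± 0.46 in oligodendrocytes and 12.13 ± 0.32 in OPCs (SD, n = 2 each), a difference of -1.46 ± 0.28 (SE, adjusted p = 0.145). Spry1 averaged 10.76 ± 0.31 in oligodendrocytes and 12.09 ± 0.05 in OPCs, and differed by -1.33 ± 0.19 (adjusted p = 0.0832). Spry2 was at -1.03 ± 0.14 (adjusted p = 0.0777). These values correspond to 2.76-fold, 2.51-fold and 2.05-fold lower levels in oligodendrocytes. Of the other genes, Etv4 was at -1.14 ± 0.19 (adjusted p = 0.117), Dusp6 at -1.02 ± 0.22 (adjusted p = 0.172), Etv5 at -0.996 ± 0.14 (adjusted p = 0.0832) and Il17rd at -0.77 ± 0.29 (adjusted p = 0.374). Etv1 at -0.43 ± 0.19 and Spred1 at -0.37 ± 0.16 were nearer to 0 (adjusted p = 0.457 and 0.443). Dusp4 was at -0.26 ± 0.26 (adjusted p = 0.845) and at 0.00024 without the passage 3 OPC array.

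The absence of calls depended on the arrays that set the spread. Without the passage 3 oligodendrocyte array 7 genes were called lower, and without the passage 11 oligodendrocyte array 6 were, namely Spry1, Spry2, Spry4, Etv4, Etv5 and Dusp6 in both, with Il17rd in the first only. The same fits call far more of all genes as well, 14.6% (8.87% lower) and 6.85% (1.81% lower). Those fits take their spread from the OPC pair alone, and the lone oligodendrocyte array is assumed to vary like it. Without either OPC array, or with passage as a replicate block, 0 were called. Counts and mean levels of astrocyte markers also differed. In oligodendrocytes 6 and 4 of 6 were above the median of all values at passages 3 and 11 (mean level 11.11 and 10.62). In OPCs 3 and 2 of 6 were (10.43 and 9.87). Gfap, Aqp4 and S100b were higher in oligodendrocytes at both passages and Slc1a3 was lower at both. Aldh1l1 and Aldoc were lower at passage 3 only. S100b had the largest difference at passage 11 (12.06 in oligodendrocytes against 8.62 in OPCs). Fibroblast and pericyte markers averaged 10.35 and 9.66 in oligodendrocytes at passages 3 and 11, against 9.66 and 9.36 in OPCs. The part of the astrocyte, fibroblast and pericyte markers in the differences of the 10 genes was not tested.

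The lower values were found at each passage, in sizes that differed by gene. At passage 3 the 10 differences had a median of -0.95 and at passage 11 of -0.96, against -0.01 and 0.01 over all genes. Etv5 was at -0.997 and -0.995 at passages 3 and 11, and Spry2 at -1.08 and -0.98 at passages 3 and 11. Spry4 was at -0.91 and -2.02, and Dusp6 at -0.63 and -1.41, so both differences were larger at passage 11. Il17rd was at -1.10 and -0.44 and Etv4 at -1.33 and -0.94, so both differences were larger at passage 3. Only Spry1, at -1.14 and -1.52, was at least 2-fold lower at both passages, as were 0.371% of all genes.

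**Figure D3:**
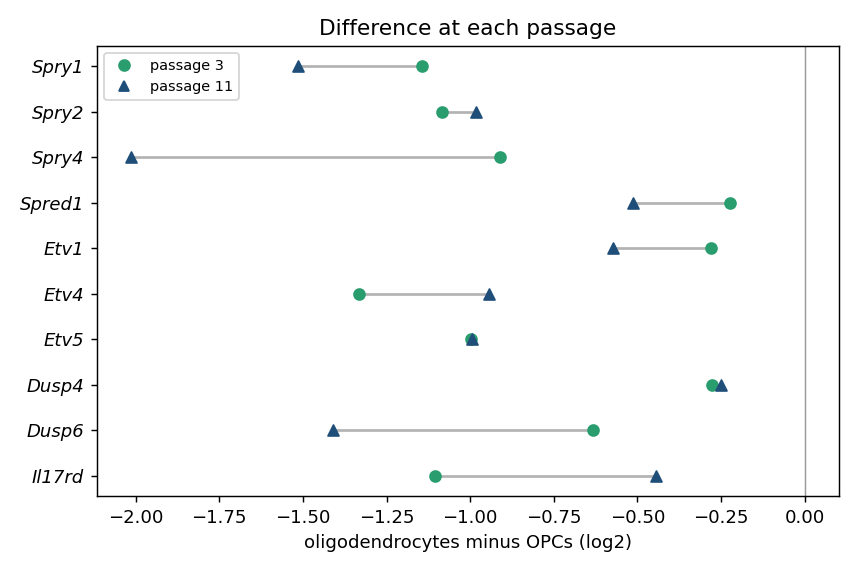
Oligodendrocytes minus OPCs (log2) for each gene at passage 3 (circles) and passage 11 (triangles), 1 array of each cell type per point. All 20 points lie below 0, the passages of Etv5 nearly coincide (-0.997 and -0.995), and Spry4 spans -0.91 to -2.02.

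Of 102 other measured genes of the pathway, 1 rose and 0 fell between OPCs and oligodendrocytes, where 0.446% of all genes were called. The counts changed with the array left out, as did the shares of all genes given above for the same fits. Without the passage 3 oligodendrocyte array 8 rose and 19 fell, without that of passage 11, 11 rose and 2 fell, and without either OPC array none was called. Of 15 other feedback inhibitors and phosphatases 0 fell and 1 rose, with a median of 0.53. The gene that rose was Dusp10, a phosphatase that prefers p38 and JNK, which stood at 11.22 and 11.48 in oligodendrocytes against 9.92 and 9.91 in OPCs and differed by 1.44 ± 0.15 (adjusted p = 0.0441). That call was lost with the replicate block (adjusted p = 0.0531) and without the passage 3 or the passage 11 OPC array (adjusted p = 0.250 and 0.291). Dusp1 was at 0.77 ± 0.77 (adjusted p = 0.850) and Spred2 at -0.74 ± 0.27 (adjusted p = 0.368). With all arrays, no gene passed among 22 FGF ligands, 11 receptors and partners, 15 cascade genes, 13 other ETS factors, 14 early genes and 12 other receptor tyrosine kinases. Fgf1 was at -1.33 ± 0.34 (adjusted p = 0.222, and 0.04996 with the replicate block), Fgfr1 at -0.59 ± 0.35 and Fgfr2 at 0.97 ± 0.27. The ERK-responsive genes Klf10 and Ccnd1, which encodes cyclin D1, were at -1.22 ± 0.33 and -1.0003 ± 0.26 (adjusted p = 0.242 and 0.236). They had the largest differences of the 14 early genes, whose median was 0.05. Erbb3, a neuregulin receptor gene, was at 1.37 ± 0.17 (adjusted p = 0.0667). Klf10, Fgf1 and Erbb3 passed without the passage 3 and also without the passage 11 oligodendrocyte array, and Ccnd1, Spred2, Fgfr1 and Fgfr2 passed without that of passage 3 only.

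Oligodendrocytes were also set against the rosette, in a contrast added after the data were seen. Of the 10 genes 3 were higher and 1 lower, against 4.72% of all genes called (2.04% higher, 2.68% lower). Etv5 was higher in oligodendrocytes by 2.97 ± 0.17 (7.83-fold, adjusted p = 0.0043), Etv1 by 2.86 ± 0.23 (7.28-fold, adjusted p = 0.0068) and Spry2 by 1.65 ± 0.17 (3.13-fold, adjusted p = 0.0126). Dusp4 was lower, at -2.46 ± 0.32 (adjusted p = 0.0216). Spry4 at 1.73 ± 0.34, Dusp6 at 1.36 ± 0.26 and Spred1 at 0.999 ± 0.19 missed the threshold (adjusted p = 0.0571, 0.0565 and 0.0551), the last passing with the replicate block (adjusted p = 0.0371). Spry1 at 0.69, Etv4 at 0.65 and Il17rd at -0.70 did not pass (adjusted p from 0.172 to 0.336). Without the passage 3 or the passage 11 oligodendrocyte array 8 of the 10 genes were called, in fits that call 24.6% and 16.7% of all genes.

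With 1 array on each side, rosettes and EpiSCs are compared by size, without a test. Relative to EpiSCs, 7 of the 10 genes were lower by 2-fold or more in rosettes and 1 was higher by as much, as were 3.69% and 6.91% of all genes. The median was -1.26, against -0.07 over all genes. Etv5 was lowest relative to EpiSCs, at -3.52 (11.5-fold), and Etv1, Spry4, Spry2 and Dusp6 followed at -2.13, -1.93, -1.63 and -1.36. Il17rd at -1.17 and Etv4 at -1.14 were also past 2-fold. Spred1 at -0.82 and Spry1 at -0.02 were not, and Dusp4 was higher by 1.13. Of the other feedback inhibitors and phosphatases Dusp9 was at -1.55, Spred2 at -1.07 and Dusp8 at 1.93, and the receptor genes Fgfr3 and Fgfr2 were higher by 2.55 and 1.61.

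A last contrast set the mean of the cell types for which FGF2 is listed (EpiSCs and OPCs) against the mean of those for which it is not (the rosette and oligodendrocytes). It uses the same arrays as the comparisons above and differs between the sides in much besides FGF2. Of the 10 genes 6 were higher with FGF2 listed and 0 lower, against 3.98% of all genes called (1.18% higher, 2.8% lower). The median was 1.16, against 0.03 over all genes. Etv5 was at 11.92 with FGF2 listed and 9.66 without, a difference of 2.26 ± 0.12 (adjusted p = 0.0077). Spry4 followed at 1.70 ± 0.24 (adjusted p = 0.0308), Spry2 at 1.33 ± 0.12 (adjusted p = 0.0144), Etv1 at 1.28 ± 0.16 (adjusted p = 0.0244), Dusp6 at 1.19 ± 0.19 (adjusted p = 0.0388) and Etv4 at 1.14 ± 0.16 (adjusted p = 0.0319). Il17rd at 0.97 ± 0.25 (adjusted p = 0.110, and 0.0483 with the replicate block), Spry1 at 0.67 ± 0.16 and Spred1 at 0.60 ± 0.14 did not pass. Dusp4 was at -0.44 ± 0.22 (adjusted p = 0.394). All 6 genes called were lowest in the rosette. EpiSCs (1 array) and oligodendrocytes were not tested against each other, and the part of FGF2 was not tested. Oligodendrocytes averaged above EpiSCs for Etv1 (12.29 against 11.56) and level with them for Spry2 (10.43 against 10.42) and Dusp6 (11.80 against 11.79). They averaged below EpiSCs for Spry4 (10.67 against 10.87), Etv4 (9.02 against 9.50) and Etv5 (11.15 against 11.70).

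Without the passage 3 or without the passage 11 OPC array only Etv5 was called in this contrast, with 0.702% and 0.647% of all genes. Without the passage 3 oligodendrocyte array 9 genes were called, and without that of passage 11, 10 were, with 20% and 17.4% of all genes. Elsewhere in the pathway Fgf5 was higher with FGF2 listed, by 1.70 ± 0.12 (adjusted p = 0.0114), and stood at 11.54 in EpiSCs against 8.27 to 8.50 on the other arrays. Dusp8 and Dusp10 were lower, at -1.23 ± 0.13 and -1.08 ± 0.13 (adjusted p = 0.0188 and 0.0234). The neuregulin receptor gene Erbb4 was lower, at -1.75 ± 0.23 (adjusted p = 0.0264), and Fgfr2 at -1.29 ± 0.24 did not pass (adjusted p = 0.0539). The Dusp8, Dusp10 and Erbb4 calls were lost without either OPC array (adjusted p from 0.0545 to 0.0935). By list, 1 of 22 ligands was higher and 1 lower, 0 of 15 other feedback inhibitors and phosphatases were higher and 2 lower, 0 of 12 other receptor tyrosine kinases were higher and 2 lower, 0 of 15 cascade genes were higher and 1 lower, and none of the receptor, ETS and early gene lists was called.

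Between passage 11 and passage 3, tested on 4 arrays (OPCs and oligodendrocytes) in a fit that also holds a term for cell type, 0 of the 10 genes and 0% of all genes were called by limma, and 1 of the 10 had an unadjusted p under 0.05, against 13.9% of all genes. That gene was Dusp4, which was at -0.52 ± 0.11 (adjusted p = 0.357), with OPCs at 8.16 at passage 11 against 8.69 at passage 3 and oligodendrocytes at 7.91 against 8.41. Il17rd followed at -0.49 ± 0.20 (adjusted p = 0.360). The other 8 genes lay between -0.25 and 0.27. With 1 residual degree of freedom, this test sets the passage difference against its disagreement between the cell types, not against a spread between cultures.

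Within the set, the genes' profiles over the 6 arrays were compared by Pearson correlation, which is given as a description because OPC and oligodendrocyte arrays of a group are alike and the rosette is low for most. Spry4 and Dusp6 were nearest to each other, at 0.998, and Spry2, Spry4, Spred1 and Dusp6 all correlated with each other at 0.960 or above. Against the mean of the other 9 genes, Spry4, Dusp6 and Spry2 stood at 0.977, 0.972 and 0.971, Spred1, Etv4 and Etv5 at 0.936, 0.932 and 0.910, and Etv1 and Spry1 at 0.817 and 0.767. Il17rd was at 0.087 and Dusp4 at -0.724. Dusp4 and Etv1 were the most opposed pair, at -0.935.

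**Figure D4:**
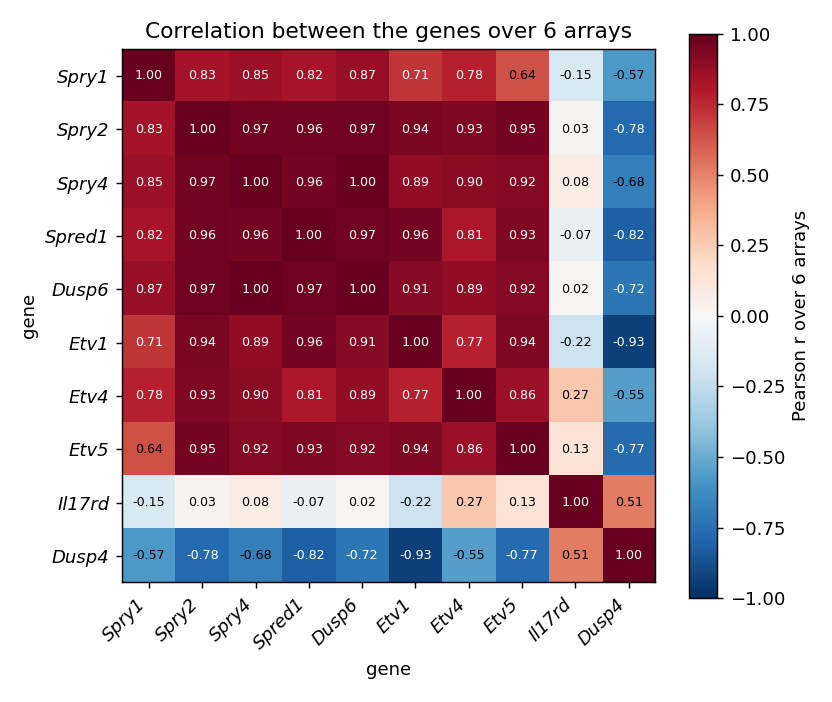
Pearson correlation between the 10 genes over the 6 arrays, with the value in each cell. The 8 genes other than Il17rd and Dusp4 correlate with each other between 0.636 and 0.998, while Dusp4 is negative with all of them.

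Among 1572 other genes with a range of at least 2 over the arrays, the profile nearest to the mean of the 10 genes was that of Dock1, a gene for an activator of the GTPase Rac, at 0.993 over 6 arrays. Dock1 stood at 10.58 in EpiSCs, 8.84 in the rosette, 11.16 and 11.41 in OPCs, and 10.39 and 9.97 in oligodendrocytes. The integrin subunit gene Itga8 (0.971), the early response receptor gene Nr4a1 (0.967), the noncoding Pvt1 (0.930), Ttpa (0.928), Crtap (0.926), the laminin gene Lama4 (0.926) and Sting1 (0.906) followed. The most opposed were Plk3, a polo-like kinase gene (-0.994), Ank3, for ankyrin G (-0.972), the kinesin gene Kif21a (-0.969) and Cdkn1c, a cyclin-dependent kinase inhibitor gene (-0.962). Plk3 stood at 12.29 in the rosette, 9.11 and 8.95 in OPCs, and 10.56 and 10.96 in oligodendrocytes. In all, 4 of the 10 genes and 12 of all genes (0.0602%) changed by 2-fold or more at each of 3 steps: down between EpiSCs and the rosette, up between the rosette and OPCs, and down between OPCs and oligodendrocytes. The 4 were Spry2, Spry4, Dusp6 and Etv4. The first step sets 1 array against 1, and the last uses group means over both passages. At the last step none of the 4 was 2-fold lower at both passages, and none was called.

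**Figure D5:**
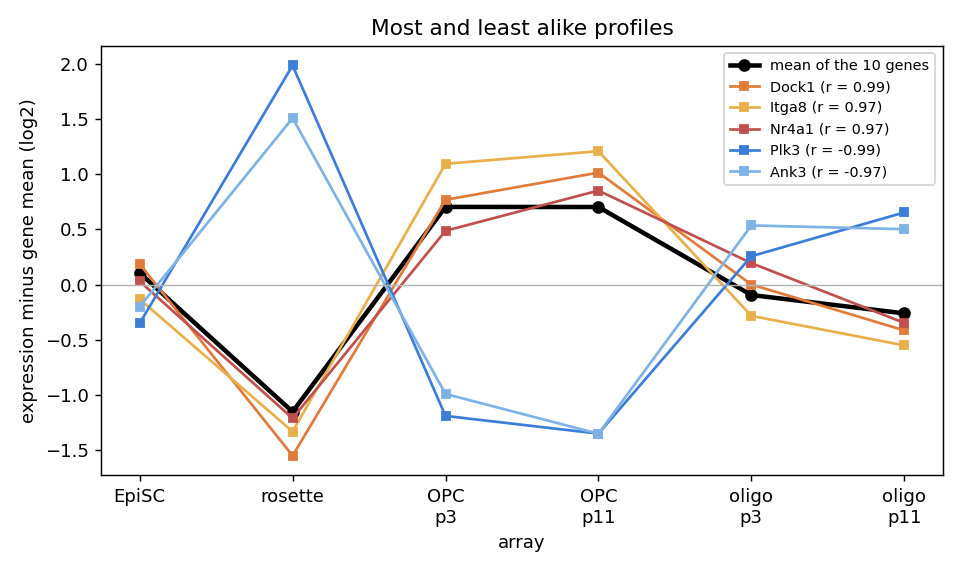
Expression minus each gene's own mean (log2) on the 6 arrays for the mean of the 10 genes (black) and for 3 of the most alike and 2 of the most opposed other genes. The black line is lowest in the rosette, at -1.15, and highest in OPCs, at 0.70 at both passages.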

How the data were processed

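RNA was measured on 6 arrays of mouse cell cultures (1 of EpiSCs, 1 of rosettes, 2 each of OPCs and oligodendrocytes), labelled from 150 ng of total RNA. Per the submitters' processing notes, which name RMA and Affymetrix Expression Console, the deposited log2 values are the authors' RMA output. RMA subtracts background, gives all arrays 1 distribution and combines the probes of a transcript. The software version is not given in the sources used here. Of 35556 transcripts, 21789 carried 1 gene symbol, 1621 several and 12146 none. For each gene the transcript with the highest mean was kept, leaving 19938 genes.

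Two-sided tests came from limma's lmFit and eBayes (version 3.58.1, under R 4.3.3), with all 6 arrays in 1 fit by cell type (2 residual and 3.32 prior degrees of freedom), and for passage on 4 arrays with cell type as a covariate (1 residual and 3.19 prior). Calls are Benjamini-Hochberg adjusted p under 0.05 over all genes tested. Beyond passage, no label says that the cultures of a group were separate, and the p-values reflect only how these arrays vary, which may be technical. The number of arrays limits the precision, and no detection call was used, so low values can be background. Passage pairs OPC and oligodendrocyte arrays per the labels (oligodendrocytes were made from OPCs of that passage); across all genes the passage differences of the cell types correlated at 0.503. A fit with passage as a replicate block is an alternative, as are leaving out each replicate, dropping dim genes, testing all transcripts, averaging transcripts, repeating quantile normalization, a trended variance prior and fitting 4 arrays only. The 10 genes, the 7 pathway lists (102 of 110 entries measured) and the 9 marker lists were chosen with earlier results of these data known. Besides the 10 genes, the pathway genes named were drawn mainly from a rule. It took from each list up to 4 called genes with the largest differences, or the 2 largest with a brighter side above the median. Not every gene that the rule gave is named in each comparison. The 8 most and 4 least alike profiles are also named. The contrast of oligodendrocytes with the rosette and the promoter motifs were chosen after the data were seen, the motifs as 4 of 14 spellings searched. Array annotation and RefSeq tables were used for names and promoter sequences.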

Additional observations from a re-analysis of the deposited data

Results flagged for a closer look

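For 3 of the 10 genes the difference between passage 11 and passage 3 ran in opposite directions in oligodendrocytes and OPCs, as it did for 31.4% of all genes. Spry4 was lower at passage 11 in oligodendrocytes by -0.65 and higher in OPCs by 0.46, a gap of -1.11. Dusp6 differed by -0.46 in oligodendrocytes and 0.32 in OPCs, a gap of -0.78. Spred1 differed by -0.28 in oligodendrocytes and 0.01 in OPCs, a gap of -0.29. Each value rests on 1 array per cell type and passage, and the differences between the cell types were not tested.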

How the results depend on the processing

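For the count of the 10 genes called, testing all 35556 transcripts gave 3 in OPCs against the rosette, 1 in OPCs against EpiSCs and 2 with FGF2 listed, in place of 9, 3 and 6. Repeating the quantile normalization and the trended variance prior each gave 1 in OPCs against EpiSCs. Leaving out 1 replicate at a time gave 4 to 9 in OPCs against the rosette, 1 to 9 in OPCs against EpiSCs, 1 to 10 with FGF2 listed, 0 to 7 in oligodendrocytes against OPCs, and 4 to 8 in oligodendrocytes against the rosette. With passage as a replicate block the counts were 9, 4, 7, 0 and 5 in the same order, and besides the calls given in the results it changed none of the 10 genes. All other counts were within 1.5 times those reported. Directions turned in 5 results, none of them called with all arrays: Etv5 between passages with the mean over transcripts (-0.0702), Spry4 between passages with repeated normalization (0.0020), Dusp4 in oligodendrocytes against OPCs (0.00024) and Il17rd in OPCs against the rosette (-0.34), both without OPC replicate 1 (-0.53 and 0.48 without OPC replicate 2), and Dusp1, an early-response phosphatase gene, in oligodendrocytes against OPCs without oligodendrocyte replicate 1 (-0.47, and 2.01 without oligodendrocyte replicate 2, where it was called at adjusted p = 1.46e-05, against 0.77). The cause was not tested. Counts over all genes moved more: oligodendrocytes against OPCs gave 89, but 20 without dim genes, 1 over all transcripts, 14 with repeated normalization and 2 to 2919 without 1 replicate; OPCs against the rosette gave 624, but 227 over all transcripts, 1206 with the block and 156 to 2897 without 1 replicate; OPCs against EpiSCs gave 1397, but 797, 2318 and 470 to 4154 under those settings; FGF2 listed gave 794, but 135, 1702 and 129 to 3991; oligodendrocytes against the rosette gave 941, but 350, 2220 and 515 to 4901. Between passages 1 gene was called with the trended prior, and the rosette and EpiSCs differed at least 2-fold in 3512 transcripts against 2113 genes.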

Other observations

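Between passages, other pathway genes showed larger differences than the 10 genes, although none passed the adjusted test. Met, the hepatocyte growth factor receptor gene, averaged 7.60 at passage 11 against 9.21 at passage 3, a difference of -1.61 ± 0.20 (adjusted p = 0.341). Fgfr3 was at -1.003 ± 0.13 and Lrig1, an inhibitor of receptor tyrosine kinases, at -0.75 ± 0.12, while Fgf1 was at 0.71 ± 0.11 (adjusted p = 0.357 for each). Fgf1 stood at 10.83 in OPCs and 9.51 in oligodendrocytes at passage 11, against 10.13 in OPCs and 8.79 in oligodendrocytes at passage 3.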
